A study of Mus musculus with 7 samples.

Results

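The class I major histocompatibility complex (MHC) genes and their partners in antigen presentation were examined in single E11.5 mouse embryos that lacked SLMAP3 or were wild type. The set held 10 of the 25461 genes in the deposited expression table, found by gene symbol: the heavy chain genes H2-K1, H2-D1, H2-Q4, H2-Q7, H2-Q10, H2-T22 and H2-T23, the light chain gene B2m, and the peptide transporter genes Tap1 and Tap2. The set was chosen because H2-Q7 had differed between the genotypes in these same embryos, so the KO against WT values of all 10 genes are given here as a description and none of them supports the choice. RNA was taken from 7 whole embryos without their tails, 3 SLMAP3 knockout (KO) and 4 wild type (WT), all of the labelled strain B6C3F1, and each embryo gave 1 library. In the KO embryos exon 3 of Slmap, which only the longest isoform uses, had been removed in every cell through loxP sites and a CMV-driven Cre that was bred out afterwards, and the shorter isoforms SLMAP1 and SLMAP2 remained. Embryos carried the labels KOAC8-6, KOAC10-5 and KOAC10-8 (KO) and KOAC8-1, KOAC10-7, KOAC9-1 and KOAC10-2 (WT), and the labels do not say what the KOAC number stands for. Expression was given as FPKM, fragments per kilobase of transcript scaled to library size, a level that is corrected for gene length.

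A class I molecule is a heavy chain bound to beta-2 microglobulin, the product of B2m, and it shows short peptides on the cell surface to T cells and natural killer cells. The peptides are cut mainly by the proteasome and carried into the endoplasmic reticulum by the Tap1/Tap2 transporter. H2-K1 and H2-D1 encode classical class I chains, which present peptides to cytotoxic T cells, whereas the Q and T region genes encode nonclassical ones: H2-Q7 a chain of the Qa-2 antigen, H2-Q10 a soluble chain secreted by the liver, and H2-T23 the Qa-1 chain that is recognised by inhibitory receptors of natural killer cells. Class I genes are among the most variable between mouse strains, and C57BL/6 and C3H mice, the parents that the name B6C3F1 stands for, carry different haplotypes of this region. The haplotype of each embryo was not measured, and its part in any difference described here was not tested.

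Of the 10 genes, 9 lie on chromosome 17 and B2m lies on chromosome 2. In the GRCm38 annotation H2-Q7 (ENSMUSG00000060550) occupies chr17:35439155-35443773 on the plus strand. H2-Q4 starts 59.5 kb before it and H2-Q10 30.9 kb after it, and these were the tested genes next to it on either side. H2-K1 (chr17:33996017-34000347, minus strand) and H2-D1 (chr17:35262730-35267499, plus strand) lie closer to the centromere, as do Tap1 and Tap2. H2-T23 (chr17:36029773-36032855) and H2-T22 (chr17:36037128-36042747) lie farther from it on the minus strand, with starts 7.4 kb apart.

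Class I promoters carry elements through which interferon and NF-kappaB act, and the stretches of the reference genome that hold them in 7 heavy chain genes and B2m are shown so that the genes can be compared. H2-T23 differed from the other heavy chain genes in holding neither TTTCACTT nor an NF-kappaB match. The sequences are RefSeq GRCm38.p6, read 5′ to 3′ on the strand of the gene. Capitals mark the letters TTTCACTT, found in class I promoters as an interferon response element, and any match to the NF-kappaB consensus beside it. In B2m and H2-T23 they mark a pair of GAAA runs with 2 bases between them, a core form of the interferon-stimulated response element, and in B2m the NF-kappaB match.
H2-K1 (chr17:34000406-34000469): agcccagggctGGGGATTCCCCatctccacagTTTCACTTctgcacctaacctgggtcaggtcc
H2-D1 (chr17:35262912-35262975): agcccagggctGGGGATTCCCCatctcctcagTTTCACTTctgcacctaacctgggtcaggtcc
H2-Q4 (chr17:35379432-35379495): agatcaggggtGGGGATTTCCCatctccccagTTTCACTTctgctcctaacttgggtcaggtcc
H2-Q7 (chr17:35439010-35439073): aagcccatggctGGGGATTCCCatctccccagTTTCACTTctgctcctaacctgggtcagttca
H2-Q10 (chr17:35469902-35469965): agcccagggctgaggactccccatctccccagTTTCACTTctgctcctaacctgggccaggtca
H2-T22 (chr17:36042902-36042965): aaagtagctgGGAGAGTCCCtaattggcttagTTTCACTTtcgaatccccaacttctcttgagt
H2-T23 (chr17:36032794-36032857): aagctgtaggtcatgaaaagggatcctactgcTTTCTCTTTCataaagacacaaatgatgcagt
B2m (chr2:122147516-122147579): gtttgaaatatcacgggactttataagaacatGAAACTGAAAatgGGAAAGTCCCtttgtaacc

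Windows from 250 bases before to 50 bases after the transcript start were found for 9 of the 10 genes, all but Tap2, and were searched on both strands. TTTCACTT occurred in 1.60% of all 32851 windows of the genome and the NF-kappaB consensus in 4.51%, while 34 windows (0.103%) held both. H2-K1, H2-D1, H2-Q4, H2-Q7 and H2-T22 held both, H2-Q10 held TTTCACTT without an NF-kappaB match, and H2-T23 held neither. The GAAA pair, which occurred in 3.44% of windows, was present in B2m, H2-T22 and H2-T23, and in H2-T22 it overlapped TTTCACTT. Of the letters searched for interferon or NF-kappaB elements, none occurred in the window of Tap1. A match describes the letters of the reference genome, and the embryos' own promoter sequences were not measured.

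The levels of the 10 genes spanned a wide range. B2m stood far above the rest, with a median of 63.2 FPKM over the 7 embryos, a range of 53.0 to 68.7 FPKM, and a mean above that of 92.0% of all genes in the table. A group of heavy chain genes followed, in the order H2-D1 (median 9.23 FPKM), H2-T22 (8.01 FPKM), H2-K1 (7.55 FPKM), H2-Q4 (5.34 FPKM) and H2-T23 (4.79 FPKM), and each overlapped its neighbour in this order over the embryos. The lowest levels were those of H2-Q7 (2.04 FPKM), H2-Q10 (1.89 FPKM), Tap1 (1.21 FPKM) and Tap2 (0.355 FPKM), which again overlapped their neighbours. Only the steps from B2m to H2-D1 and from H2-T23 to H2-Q7 separated ranges that did not overlap. B2m, H2-Q4 and H2-T22 differed least among the embryos, with highest-to-lowest ratios of 1.30, 1.27 and 1.31. H2-T23 (1.55), H2-K1 (1.76), Tap1 (1.81), H2-D1 (1.85) and Tap2 (4.10) varied more. The ratio was 8.24 for H2-Q7 and 42.2 for H2-Q10, the most variable of the set. In whole embryos, fewer cells of an expressing type and less RNA per cell cannot be told apart.

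**Figure D1:**
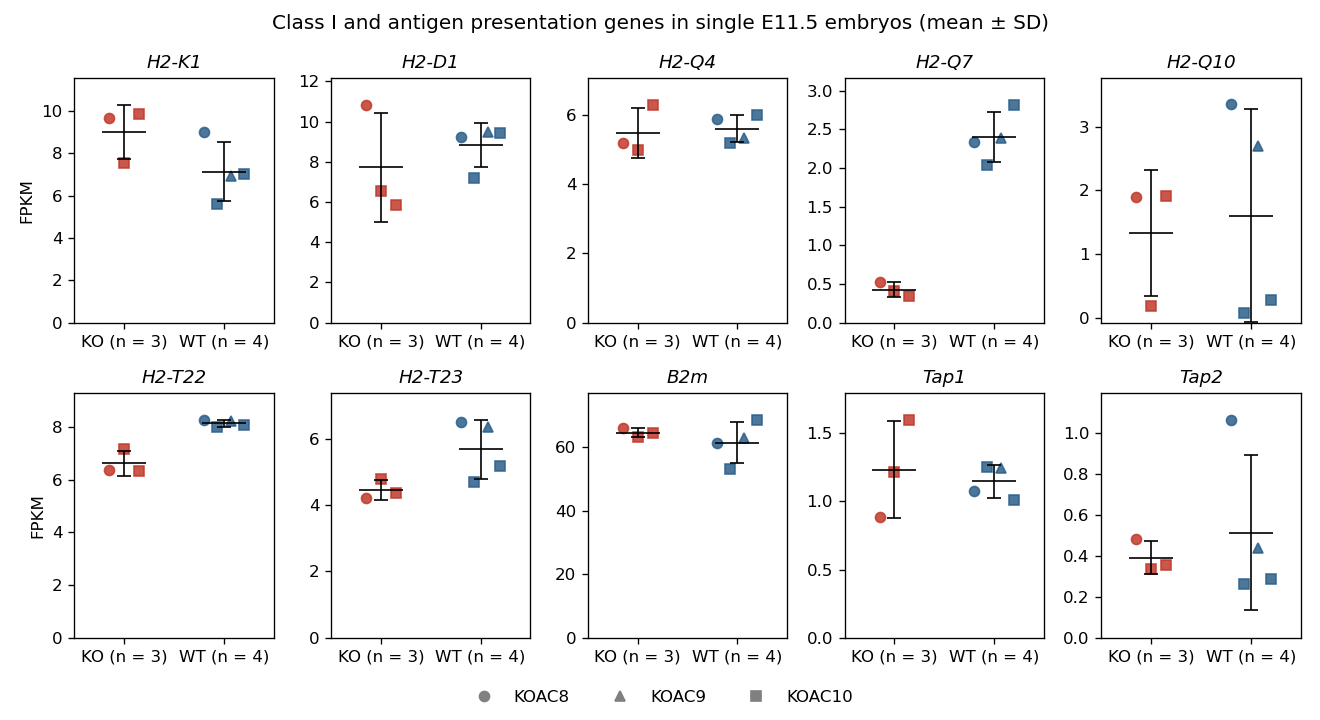
FPKM of each of the 10 genes (vertical axes, from 0 except for the lower error bar of H2-Q10) in the 3 KO and 4 WT embryos. Each point is 1 embryo, its shape gives the KOAC number, and bars give mean ± SD. The KO points of H2-Q7 lie between 0.342 and 0.527 FPKM, all below the WT points, whereas the other genes except H2-T22 overlap.

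H2-Q7 was the gene on which the set was selected, and no KO embryo reached the level of a WT one. Its level was 0.527 FPKM in KOAC8-6, 0.403 FPKM in KOAC10-5 and 0.342 FPKM in KOAC10-8, all KO. It was 2.34 FPKM in KOAC8-1, 2.04 FPKM in KOAC10-7, 2.39 FPKM in KOAC9-1 and 2.82 FPKM in KOAC10-2, all WT. The groups did not overlap, and the highest KO value was far below the lowest WT value. Because the groups did not overlap, the same order necessarily held within KOAC8 and within KOAC10, the numbers that had both genotypes. That order adds nothing to the split by genotype. KO embryos averaged 0.424 ± 0.0944 FPKM (SD, n = 3) and WT embryos 2.40 ± 0.321 FPKM (SD, n = 4), so the KO mean was 17.7% of the WT mean. On the log2(FPKM + 1) scale, which understates changes of low genes, the difference was -1.25 (SE 0.10). The adjusted p of 0.0132 from limma, over all 16095 genes that averaged 1 FPKM or more, is the value by which the set was chosen. It was above 0.05 with the KOAC number as a block (0.217), with the log2 level of Xist, the RNA of the inactive X chromosome, as a covariate (0.0523), and without KOAC8-6 (0.0546), KOAC10-5 (0.0741), KOAC10-8 (0.0747) or KOAC9-1 (0.0702), while the difference itself stayed between -1.36 and -1.19 in these and the other alternatives that kept a pseudocount of 1 and tested H2-Q7 on its own.

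Among all genes tested, 6 (0.0373%) had an adjusted p under 0.05, and H2-Q7 was the only one of the 9 tested class I and antigen presentation genes. For the other 8 tested genes the adjusted p from limma ranged from 0.286 to 0.994, and Tap2 was not tested because its mean was under 1 FPKM. H2-Q7 passed this filter only through its WT embryos, since all its KO values lay under 1 FPKM. The median log2 difference of the 9 genes was -0.03, against 0.01 for all genes tested. The KO and WT ranges did not overlap, with KO lower, for 2 of the 9 genes, H2-Q7 and H2-T22, where 5.98% of all genes tested showed this, and for none with KO higher, against 5.61%. Nothing is read from these counts, since the genes were selected on this comparison.

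**Figure D2:**
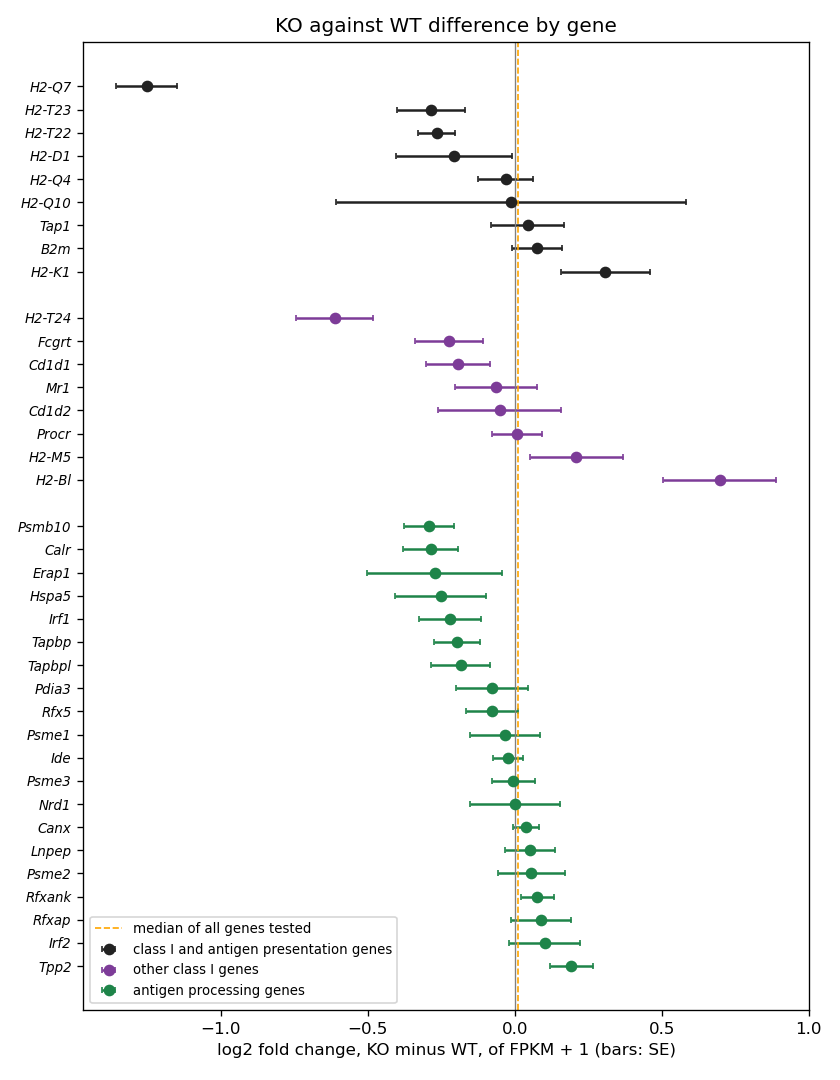
Log2 fold change, KO minus WT, of FPKM + 1 (horizontal axis) for the 9 tested class I and antigen presentation genes, other class I genes and antigen processing genes (vertical axis); bars are SE from limma. H2-Q7 at -1.25 stands apart, and the dashed line marks the median of all genes tested, 0.01.

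The T region genes H2-T22 and H2-T23 were the next lowest in KO embryos. H2-T22 was at 6.38, 7.17 and 6.34 FPKM in KOAC8-6, KOAC10-5 and KOAC10-8, and at 8.30, 8.01, 8.25 and 8.09 FPKM in KOAC8-1, KOAC10-7, KOAC9-1 and KOAC10-2. The groups did not overlap and the WT embryos lay close together. WT embryos averaged 8.16 ± 0.137 FPKM (SD, n = 4) and KO embryos 6.63 ± 0.468 FPKM (SD, n = 3). The log2 difference was -0.26 (SE 0.06). For H2-T23, the Qa-1 chain, the KO embryos gave 4.20, 4.79 and 4.36 FPKM and the WT embryos 6.50, 4.69, 6.36 and 5.16 FPKM, in the same order. The WT embryo KOAC10-7 lay within the KO range, and the log2 difference was -0.29 (SE 0.12).

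The value of H2-T22 may rest in part on reads that other genes share. Of the 50-base stretches in its annotated transcripts, 53.5% also occur in another gene, 31.2% in H2-T10 and 26.5% in A930015D03Rik, a long noncoding RNA on the opposite strand that overlaps the T region genes. The library kit named in the labels does not mark strand, so reads from H2-T22 and A930015D03Rik cannot be told apart where they overlap. A930015D03Rik was at 3.27 to 4.95 FPKM in KO embryos and at 1.69 to 2.77 FPKM in WT embryos, the opposite order to H2-T22, with a log2 difference of 0.60 (SE 0.16; adjusted p = 0.293 from limma). H2-T10 was at most 0.173 FPKM in any embryo. H2-T22, H2-T10 and A930015D03Rik summed to 10.68 ± 0.889 FPKM (SD, n = 3) in KO embryos, against 10.54 ± 0.509 FPKM (SD, n = 4) in the WT ones. The log2 difference of the sum was 0.02, where that of H2-T22 alone was -0.26. The sum takes in the whole FPKM of each gene, unshared stretches included. How reads were assigned among these genes was not tested.

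H2-K1, a classical heavy chain gene, had the highest log2 difference of the set. It was at 9.65, 7.55 and 9.86 FPKM in KOAC8-6, KOAC10-5 and KOAC10-8, and at 8.98, 5.61, 6.91 and 7.00 FPKM in KOAC8-1, KOAC10-7, KOAC9-1 and KOAC10-2. The groups overlapped through the WT embryo KOAC8-1, and the log2 difference was 0.31 (SE 0.15). H2-D1, the other classical gene, had KO values of 10.85, 6.52 and 5.85 FPKM and WT values of 9.23, 7.18, 9.49 and 9.43 FPKM. It was highest of all in the KO embryo KOAC8-6 and lowest in the KO embryo KOAC10-8, so the KO embryos enclosed the WT range, with a log2 difference of -0.21 (SE 0.20).

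H2-Q4, the nearest tested gene before H2-Q7, was nearly level across the embryos. The KO values were 5.18, 4.97 and 6.30 FPKM, the WT values were 5.88, 5.19, 5.34 and 5.99 FPKM, and its log2 difference was -0.03 (SE 0.09). The KO embryos held both the lowest and the highest value. H2-Q4 thus had a KO mean of 97.9% of the WT mean, where that of H2-Q7 was 17.7%. H2-Q4 shares 15.3% of its stretches with Gm11131, and their sum gave a log2 difference of -0.01.

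B2m, whose product class I heavy chains need to reach the cell surface, did not follow H2-Q7. Its level was 66.2, 63.2 and 64.4 FPKM in the KO embryos KOAC8-6, KOAC10-5 and KOAC10-8, and 61.3, 53.0, 62.9 and 68.7 FPKM in the WT embryos KOAC8-1, KOAC10-7, KOAC9-1 and KOAC10-2. All KO values lay inside the WT range, with a log2 difference of 0.08 (SE 0.08). None of the stretches of B2m occurs in another gene, so its value is the least open to shared reads.

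The 7 heavy chain genes together came to 38.7, 31.6 and 35.0 FPKM in the KO embryos KOAC8-6, KOAC10-5 and KOAC10-8, and to 44.6, 32.8, 41.4 and 38.8 FPKM in the WT embryos KOAC8-1, KOAC10-7, KOAC9-1 and KOAC10-2. The sums overlapped, with means of 35.1 ± 3.54 FPKM (SD, n = 3) for KO and 39.4 ± 5.00 FPKM (SD, n = 4) for WT. H2-K1 and H2-D1 made up 44.5% to 53.0% of the sum in KO embryos and 39.0% to 42.4% in WT embryos, ranges that did not overlap. Nothing is read from this share, since the genes were selected on this comparison. H2-Q7 made up 0.979% to 1.36% in KO embryos and 5.26% to 7.28% in WT embryos, so it was a minor heavy chain transcript in both. B2m was at 1.71 to 2.00 times the heavy chain sum in KO embryos and at 1.38 to 1.77 times in WT embryos, ranges that overlapped.

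**Figure D3:**
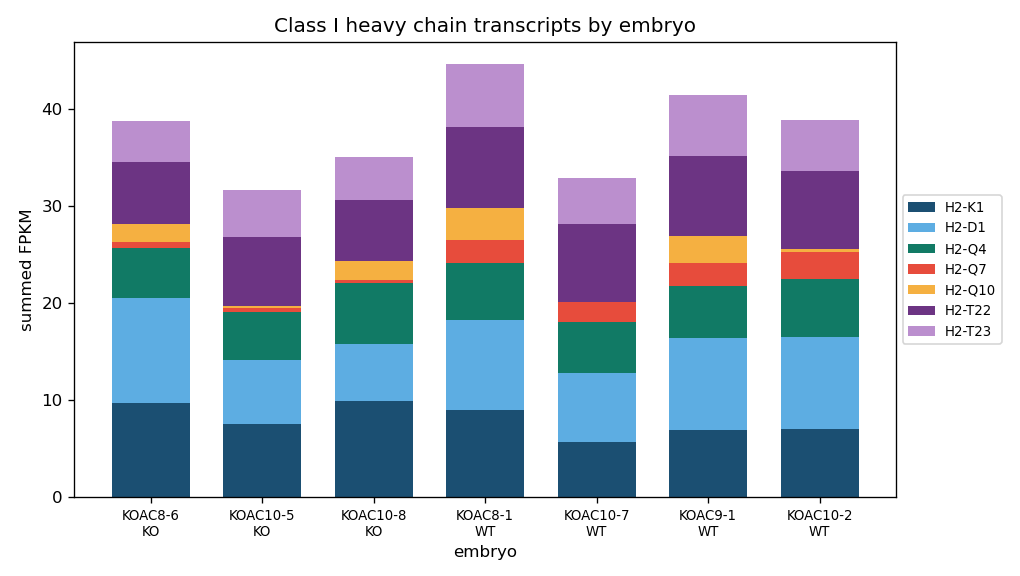
Summed FPKM (vertical axis, from 0) of the 7 class I heavy chain genes in each of the 3 KO and 4 WT embryos (horizontal axis), with each gene's part in its own colour. The sums lie between 31.6 and 44.6 FPKM, and the H2-Q7 band is thinner in the KO embryos.

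H2-Q10, the liver-secreted chain, divided the embryos in another way than genotype. It was at 1.89 FPKM in KOAC8-6 and 1.92 FPKM in KOAC10-8 but at 0.187 FPKM in KOAC10-5, all KO. It was at 3.36 FPKM in KOAC8-1 and 2.70 FPKM in KOAC9-1 but at 0.0796 FPKM in KOAC10-7 and 0.288 FPKM in KOAC10-2, all WT. The 3 low embryos, of both genotypes, all carried the number KOAC10, while KOAC10-8 was among the high ones. They were also low in the 15 liver markers examined, each of which was lower in these 3 embryos than in the other 4, with a summed level of 21.5 to 34.0 FPKM against 516.6 to 915.7 FPKM. Afp, the alpha-fetoprotein of fetal liver and yolk sac, was at 5.18 FPKM in KOAC10-5, 1.30 FPKM in KOAC10-7 and 2.49 FPKM in KOAC10-2, and at 255.0 to 375.8 FPKM in the others. The cause of the low liver transcripts was not tested.

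The log2 difference of H2-Q10 between genotypes was -0.01 (SE 0.60), and the groups overlapped. With log2 Afp as a covariate it was -0.36 (SE 0.09; adjusted p = 0.289 from limma). The 3 genes most like H2-Q10 over the 7 embryos were Cpox (Pearson r = 0.999), an enzyme of heme synthesis, Serpina6 (0.995), the corticosteroid-binding globulin made by liver, and C3 (0.995), a complement component. These correlations are descriptions only, because the embryos fall into separate low and high clusters. H2-Q7 did not divide the embryos in this way: both WT embryos that were low in Afp had H2-Q7 above 2 FPKM, as the other WT embryos did.

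**Figure D4:**
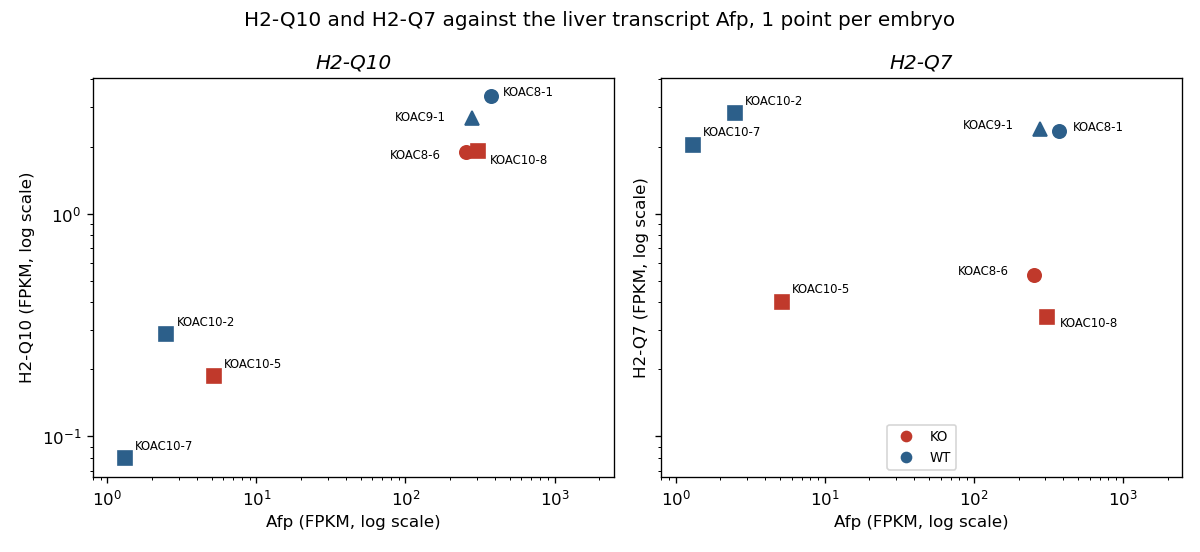
H2-Q10 (left) and H2-Q7 (right) in FPKM against Afp in FPKM, all on log axes, 1 point per embryo, with KO in red and WT in blue. H2-Q10 is at most 0.288 FPKM in the 3 embryos with Afp at or below 5.18 FPKM, whereas H2-Q7 is split by genotype at both Afp levels.

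The peptide transporter genes were low in all embryos. Tap1 was at 0.885, 1.21 and 1.60 FPKM in KOAC8-6, KOAC10-5 and KOAC10-8, and at 1.08, 1.25, 1.25 and 1.01 FPKM in KOAC8-1, KOAC10-7, KOAC9-1 and KOAC10-2. The KO embryos held both the lowest and the highest value, with a log2 difference of 0.04 (SE 0.12). Tap2 gave 0.482, 0.335 and 0.355 FPKM in KO and 1.07, 0.261, 0.440 and 0.288 FPKM in WT. The WT embryo KOAC8-1 stood above the other 6, which overlapped.

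Reads shared with other genes limit these values, except that of B2m, to differing degrees. The share of 50-base stretches that also occur in another annotated gene was 53.5% for H2-T22, 36.4% for H2-Q4, 26.5% for H2-Q7, 19.1% for H2-Q10, 14.5% for H2-T23, 12.8% for H2-D1, 11.6% for Tap2, 9.63% for H2-K1 and 3.33% for Tap1. H2-Q7 shares 14.0% with H2-Q10, 8.74% with H2-Q5 and 6.31% with H2-Q6. H2-Q6 was at 0.225 to 0.365 FPKM in KO embryos and at 0.309 to 0.742 FPKM in WT embryos, ranges that overlapped. How reads were assigned between H2-Q7 and its relatives was not tested. H2-Q5 was at 0.292 to 0.389 FPKM in KO embryos and at 0.240 to 0.361 FPKM in 3 WT embryos, but at 5.10 FPKM in the WT embryo KOAC9-1. The sum of H2-Q7 and H2-Q10 was 2.42, 0.590 and 2.26 FPKM in the KO embryos KOAC8-6, KOAC10-5 and KOAC10-8 and 5.70, 2.12, 5.09 and 3.11 FPKM in the WT embryos KOAC8-1, KOAC10-7, KOAC9-1 and KOAC10-2. Its log2 difference was -0.88, and its groups overlapped as H2-Q10 entered with its liver pattern.

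Other genes of the pathway, from lists of which 82 members were in the table and 45 were tested, did not pass the test: none had an adjusted p under 0.05 from limma in either direction. At an unadjusted p under 0.05, 2 of the 45 were higher and 4 lower in KO embryos, 6 in all, where 11.5% of all genes tested had such a p. The KO and WT ranges did not overlap, with KO higher, for 2 of the 45, H2-Bl and the antigen processing gene Tpp2, against 5.61% of all genes tested. With KO lower they did not overlap for 2, H2-T24 and Psmb10, against 5.98%. Nothing is read from these separate ranges. The median log2 difference was -0.06 for the 8 tested other class I genes, -0.03 for the 20 tested antigen processing genes and -0.03 for the 16 tested interferon response genes, against 0.01 for all genes tested. Of the other class I genes in the list, 13 of 31 had no row and were not analysed here.

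Among the other class I genes the highest mean levels were those of Cd1d1, which presents lipids to natural killer T cells, Fcgrt, the neonatal Fc receptor, and H2-T24. Cd1d1 was at 15.4 to 18.2 FPKM in KO and 16.4 to 22.6 FPKM in WT embryos, with a log2 difference of -0.19 (SE 0.11). Fcgrt was at 4.83 to 6.38 FPKM in KO and 5.80 to 7.78 FPKM in WT embryos, with a log2 difference of -0.22 (SE 0.12). H2-T24, a nonclassical gene of the T region, was at 2.80, 2.35 and 1.71 FPKM in KOAC8-6, KOAC10-5 and KOAC10-8 and at 3.44, 4.14, 4.01 and 4.37 FPKM in KOAC8-1, KOAC10-7, KOAC9-1 and KOAC10-2. Its groups did not overlap, and its log2 difference was -0.61 (SE 0.13; adjusted p = 0.274 from limma). H2-Bl, the tested gene next to H2-T22, had the opposite order, with KO values of 1.63, 1.72 and 2.94 FPKM and WT values of 0.766, 1.34, 0.554 and 0.933 FPKM. Its log2 difference was 0.70 (SE 0.19, adjusted p = 0.312 from limma). H2-K2 and H2-T-ps, too low to be tested, were also higher in KO embryos without overlap. H2-K2 was at 0.611 to 1.01 FPKM in KO and 0.340 to 0.567 FPKM in WT embryos. H2-T-ps was at 0.659 to 1.15 FPKM in KO and 0.264 to 0.479 FPKM in WT embryos. H2-T10, also untested, was lower, at 0.089 to 0.109 FPKM in KO and 0.113 to 0.173 FPKM in WT embryos.

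Among the antigen processing genes the highest levels were those of chaperones: Calr (calreticulin), Hspa5 (BiP) and Pdia3 (ERp57), which fold glycoproteins of the endoplasmic reticulum in general. Calr was at 382.4 to 478.6 FPKM in KO and 465.0 to 543.3 FPKM in WT embryos, with a log2 difference of -0.28 (SE 0.09; adjusted p = 0.359 from limma). Hspa5 and Pdia3 had log2 differences of -0.25 (SE 0.16) and -0.08 (SE 0.12). Of the inducible proteasome subunits, Psmb10 was at 12.8 to 16.2 FPKM in KO and 16.9 to 18.7 FPKM in WT embryos, groups that did not overlap, with a log2 difference of -0.29 (SE 0.08; adjusted p = 0.330 from limma). Psmb9 was at 0.293 to 0.485 FPKM in KO and 0.494 to 0.652 FPKM in WT embryos, also without overlap. Psmb8 was at 0.437 to 0.456 FPKM in KO and 0.336 to 0.984 FPKM in WT embryos, which overlapped. Psmb8 and Psmb9, whose genes lie beside Tap1 and Tap2, were too low to be tested, and Nlrc5, the transactivator of class I genes, was at most 0.0864 FPKM.

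Interferon response genes, which rise together with class I genes when interferon acts, gave no call. Of the 31, 16 were tested and none had an unadjusted p under 0.05, and their log2 differences ran from -0.31 to 0.11. The 3 with the highest mean levels were Ifnar1, the type I interferon receptor chain, with a log2 difference of -0.03 (SE 0.07), Stat2, with one of 0.01 (SE 0.10), and Ifnar2, with one of 0.05 (SE 0.14). Rsad2, an interferon-induced gene too low to be tested, was at 0.115 to 0.349 FPKM in KO and 0.413 to 0.730 FPKM in WT embryos. These ranges did not overlap, and no other gene of the interferon list showed this. Class II genes were low: of 10 in the table, H2-DMa alone was tested, at 2.31 to 4.32 FPKM over the embryos, with a log2 difference of 0.27 (SE 0.13; adjusted p = 0.489 from limma). H2-Ab1, a class II chain, was too low to be tested but its groups did not overlap, at 0.0286 to 0.289 FPKM in KO and 0.479 to 0.650 FPKM in WT embryos. Cd74, the invariant chain, was at 0.494 to 0.724 FPKM in KO and 0.486 to 0.780 FPKM in WT embryos, which overlapped. The shares of non-overlapping ranges given for all genes cover tested genes only, so none is given for genes too low to be tested.

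Genes near H2-Q7 were compared next, since the position of a gene was not used in choosing the set. Within 1 Mb of its start on chromosome 17, 78 genes outside the set were tested and none had an adjusted p under 0.05 from limma, the lowest being 0.212. An unadjusted p under 0.05 was found for 14 of the 78 (17.9%), against 11.5% of all genes tested. The KO and WT ranges did not overlap for 5 genes with KO lower (6.41%, against 5.98% of all genes) and 9 genes with KO higher (11.5%, against 5.61%). The log2 differences of the 78 tested genes ran from -0.61 (H2-T24) to 0.95 (Gm18733). All were above the -1.25 of H2-Q7, from which nothing is read, since H2-Q7 was chosen for its difference. Gm18733, a transcribed pseudogene and the tested gene after H2-D1, was at 8.75 to 10.17 FPKM in KO and 2.81 to 5.46 FPKM in WT embryos (SE 0.19; adjusted p = 0.274 from limma). Tcf19, the tested gene after H2-Q10, had a log2 difference of -0.11 (SE 0.08), and Gm8741, before H2-Q4, one of -0.12 (SE 0.14). The window held 126 genes, of which 84, set genes included, averaged 1 FPKM or more and were tested. Untested genes with separate ranges went in both directions. Pou5f1, which starts 66.9 kb after H2-Q7, was at 0.0121 to 0.0802 FPKM in KO and 0.129 to 0.592 FPKM in WT embryos. Its KO mean was 13.3% of the WT mean, where that of H2-Q7 was 17.7%. C4b was at 0.358 to 0.828 FPKM in KO and 0.153 to 0.273 FPKM in WT embryos, with a KO mean of 290.2% of the WT mean.

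**Figure D5:**
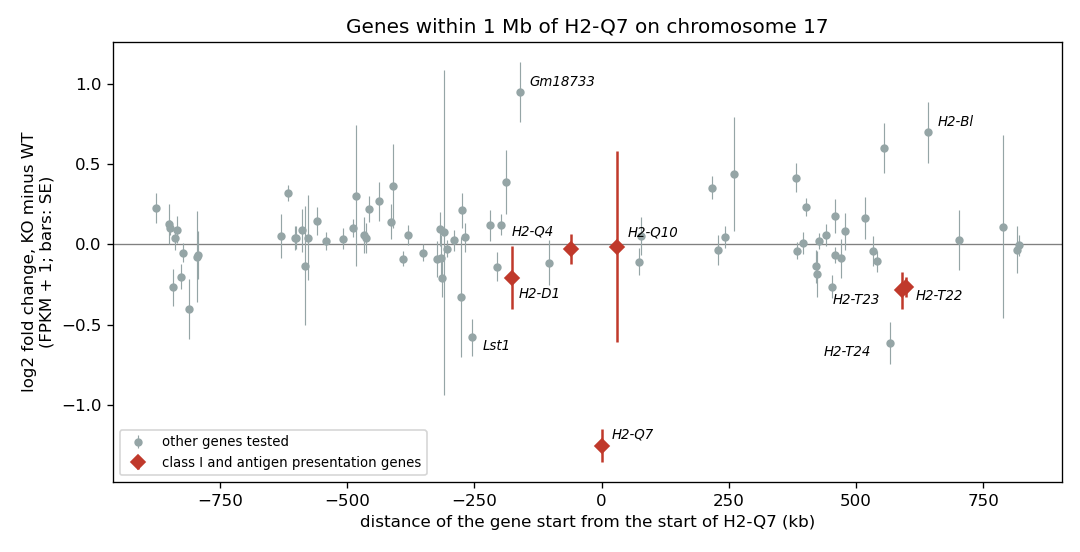
Log2 fold change, KO minus WT, of FPKM + 1 (vertical axis) against the distance of the gene start from that of H2-Q7 in kb (horizontal axis) for tested genes within 1 Mb; bars are SE from limma. Class I and antigen presentation genes are red diamonds. H2-Q7 is at -1.25, and its red neighbours H2-Q4 and H2-Q10 are at -0.03 and -0.01.

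The genes whose pattern over the 7 embryos was most like that of H2-Q7 were Rnf145 (Pearson r = 0.988), a ubiquitin ligase, Rrbp1 (0.987), a ribosome-binding protein of the endoplasmic reticulum, and Rps18 (0.986), a ribosomal protein. These r values describe the split between KO and WT embryos, which all of them share. Rps18 starts 44.0 kb from H2-K1, at the centromeric edge of the same region of chromosome 17, and 1.49 Mb from H2-Q7. It was at 152.2 to 163.3 FPKM in KO and 1169 to 1184 FPKM in WT embryos, a log2 difference of -2.90 (SE 0.05; adjusted p = 1.01e-06 from limma). Rps18 is a called gene of the same region that the 1 Mb window around H2-Q7 does not reach. It was named for its pattern over the embryos. Stretches shared with other genes were not examined for Rps18, and a link to H2-Q7 was not tested.

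Slmap itself, the targeted gene, had KO levels of 19.6, 16.0 and 16.6 FPKM and WT levels of 31.2, 23.9, 29.1 and 22.8 FPKM, in the order used above. No KO embryo reached the lowest WT value, and the KO mean was 65.1% of the WT mean, with a log2 difference of -0.59 (SE 0.13; adjusted p = 0.278 from limma). Whole-gene FPKM adds the isoforms that remain to the deleted one. The relative depth of the libraries was read from the steps between low values, where 1 is the mean of the 7. It was 1.135, 1.05 and 1.08 in the KO embryos and 0.892, 0.816, 1.21 and 0.811 in the WT embryos, in the same order. Its part in the low values was not tested.

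Markers of other cell types were read beside these results. The 15 leukocyte markers, whose cells express class I genes strongly, summed to 80.2 to 91.5 FPKM in KO and 73.9 to 104.7 FPKM in WT embryos. Of the 13 tested, 10 had a negative and 3 a positive log2 difference, with a median of -0.14 against 0.01 for all genes tested, and none had an unadjusted p under 0.05. Mrc1, the macrophage mannose receptor, was at 2.49 to 3.40 FPKM in KO and 3.43 to 4.63 FPKM in WT embryos, without overlap. It was the only 1 of the 13 tested with separate ranges, where 5.98% of all genes tested had KO lower without overlap. Ptprc (CD45) was at 0.620 to 1.19 FPKM. The 10 endothelial markers summed to 203.9 to 221.1 FPKM in KO and 197.8 to 204.7 FPKM in WT embryos, and of these 2, Pecam1 and Kdr, were higher in KO embryos at an unadjusted p under 0.05, which 11.5% of all genes tested had in either direction, with none passing the adjusted test. KO values lay above the WT range for 4 of the 10, against 5.61% of all genes tested. The 4 trophoblast and decidua markers in the table summed to at most 1.06 FPKM in any embryo, and none of them passed 0.841 FPKM. The defining genes of embryonic neural tube, heart, muscle, somite, limb and blood (Sox2, Nppa, Myog, Pax3, Prrx1 and Hbb-y) were all present, as the label of whole embryo calls for. Among these 6, Myog and Hbb-y had KO values below the WT range, against 5.98% of all genes tested, and Sox2 and Pax3 had KO values above it, against 5.61%, each with an adjusted p of 0.286 or more from limma. The part of these tissues in the class I values was not tested.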

How the data were processed

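Per the labels, total RNA of whole E11.5 embryos was made into TruSeq RNA v2 libraries; the submitters' processing notes name Salmon, DESeq2, MultiQC and GRCm38 without versions or roles. The deposited table holds FPKM values per gene and embryo, which the authors normalized for length and depth. It also holds the authors' own comparison (a deposited normalized mean signal, log2 fold changes with errors, p-values), which was not used. Unmapped FPKM columns numbered 0. The genes and lists were chosen with earlier results of these data known. In R 4.3.3, limma 3.58.1 (lmFit, eBayes with trend) compared 3 KO with 4 WT embryos on log2(FPKM + 1) over 16095 genes averaging 1 FPKM or more, with Benjamini-Hochberg adjustment and a threshold of 0.05; the procedure was tested on simulated data. Embryos are the replicates, and no counts were used, so counting intervals were not given. Positions and shared 50-base stretches came from GENCODE M21, in which 25447 of 25461 identifiers had a position. Named beside the set were Slmap, pathway-list genes that passed the test or had the 3 highest means of their list, genes sharing 10% or more of the stretches of a set gene, markers, tested neighbours and the 3 genes most alike in pattern. H2-Q5, H2-Q6, H2-K2, H2-T-ps, H2-Ab1, Cd74, Psmb8, Psmb9, Psmb10, Tpp2, Nlrc5, Rsad2, Pou5f1 and C4b were named after their values were seen.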

Additional observations from a re-analysis of the deposited data

Results flagged for a closer look

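Of 29 class I and antigen presentation genes and Slmap examined in the 4 WT embryos, 2 had 1 embryo far from the other 3, where chance gives about 1 in 20 (1.45). H2-Q5 was highest in KOAC9-1, with a gap of 0.975 of the WT range: 5.10 FPKM against 0.361 FPKM or less in the other 3. H2-D1 was lowest in KOAC10-7, with a gap of 0.885 of the range: 7.18 FPKM against 9.23 FPKM or more. No cause was tested for either.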

How the results depend on the processing

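The count of all genes with an adjusted p under 0.05 was 6; it was 10 with log2 Afp as a covariate, 4 among genes averaging 5 FPKM or more, and 7 to 12 when 1 embryo was left out, the 12 without the WT embryo KOAC8-1. The count within the class I and antigen presentation genes was 1, H2-Q7, and was 0 among genes averaging 5 FPKM or more, where H2-Q7 was not tested, with the KOAC number as a replicate block, with log2 Xist as a covariate, and, in the range of 0 to 1 when 1 embryo was left out, without KOAC8-6, KOAC10-5, KOAC10-8 or KOAC9-1. The labels pair no embryos; KOAC9-1 is alone in its block and adds nothing to that fit. The other pathway genes and the neighbours had 0 calls under all 16 alternatives. With a pseudocount of 0.1 the log2 difference of H2-Q7 was -2.26. The sign was not constant over the alternatives for H2-Q10 (-0.88 to 0.42), H2-Q4 (-0.12 to 0.03), Tap1 (-0.07 to 0.16) and H2-T22 (-0.32 to 0.02, positive only when summed with the genes that share its stretches), and stayed negative for H2-Q7 and Slmap. FPKM carry no count, so depth limits the low genes, H2-Q7, H2-Q10, Tap1 and Tap2, to an unknown degree.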
